A study of Mus musculus with 13 samples.

Results

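Every gene measured in the comparison of humanized progranulin-deficient cortex with wild-type cortex was taken. The 2 groups were 4 mice without mouse progranulin that carry a human progranulin transgene, labelled Grn-/-; GRNtg, and 5 wild-type mice, labelled Grn+/+. All were male and 18 months old, and the RNA was total RNA of the cortex. Another group of 4 Grn+/- mice of the same sex and age, with 1 copy of the mouse gene, is used for context. Which promoter drives the transgene, its copy number, the strain background and whether mice shared litters were not stated in the sources used here. All rows of the authors' table for this comparison that name a gene were taken as members, which gave 14961 genes of the 17562 listed in any of the 3 comparisons. Fold changes, standard errors (SE) and adjusted p-values below are those of the authors' deposited tables, and no values per mouse were used here, so it cannot be said whether single mice of the groups overlap. A gene counted as called where the authors' adjusted p was under 0.05.

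Progranulin is a secreted glycoprotein that is taken up and carried to lysosomes, where it is cleaved into granulins. Neurons and microglia are its main sources in brain. Loss of 1 functional human copy causes frontotemporal dementia and loss of both causes a lysosomal storage disease. The design asks how a cortex whose only progranulin comes from a human transgene differs from one with both mouse copies.

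Defining markers of male cortex were abundant. Slc17a7, the vesicular glutamate transporter of cortical excitatory neurons, averaged 36092 normalized counts over all libraries in the authors' deposited table. The cortical transcription factor Tbr1 stood at 2194 there. Ddx3y of the Y chromosome stood at 672, and Xist had no row among the members. None of these 3 listed genes was called.

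Mouse Grn was lower, which checks the labels. In the authors' deposited table its log2 fold change against wild type was -2.02 ± 0.081 (SE, adjusted p = 5.8e-131), an estimated 24.7% of the wild-type level. Grn+/- stood at -0.65 ± 0.077 relative to wild type, and Grn-/-;GRNtg at -1.36 ± 0.085 relative to Grn+/-, in the authors' deposited tables. How many reads of the human transgene were counted to the mouse gene was not tested. Grn shares its locus with Fam171a2 on the opposite strand, whose log2 fold change was -0.038 ± 0.076 in the authors' deposited table.

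Against that background, 728 of 14961 genes were called, which is 4.87% of those tested. A total of 271 were higher (1.81%) and 457 lower (3.05%). The median log2 fold change over all genes was 0.005, and 51.3% of genes had a positive value. Changes were small. The median log2 fold change was 0.31 among higher calls and -0.36 among lower calls, and 92 calls exceeded 0.5 in size, 22 of them higher and 70 lower. For comparison, 6.8% of 13482 genes were called in Grn+/- against wild type. The share was 0.467% of 17562 in Grn-/-;GRNtg against Grn+/-. The first of these shares its wild-type mice with the comparison described here and the second shares its Grn-/-;GRNtg mice.

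**Figure D1:**
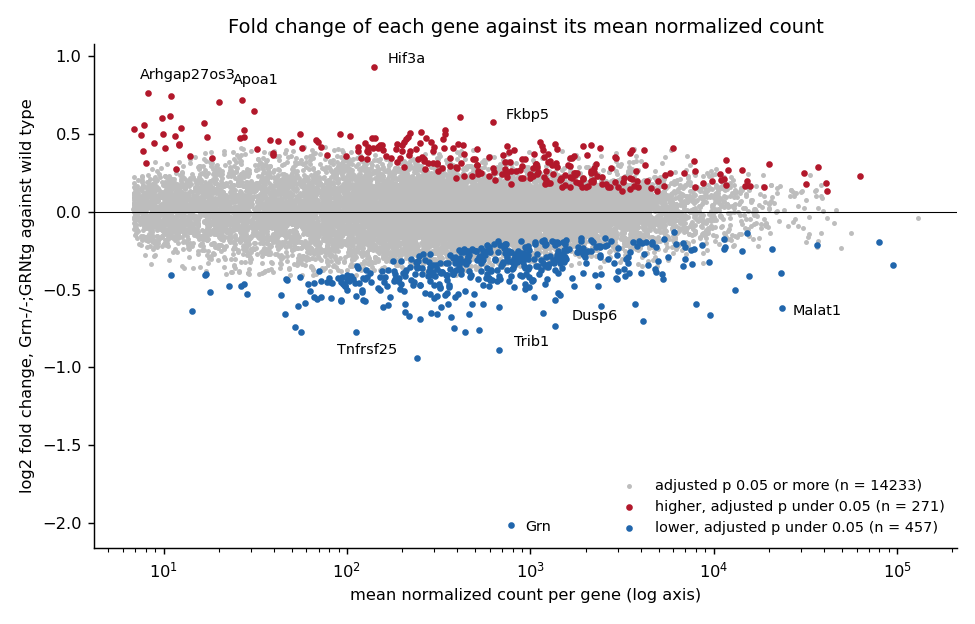
Each point is a gene, with its mean normalized count over all libraries on the horizontal log axis and its log2 fold change in Grn-/-;GRNtg against wild type on the vertical axis, both from the authors' deposited table. Of 14961 genes, 271 are higher (red) and 457 lower (blue) at an adjusted p under 0.05, and Grn at -2.02 lies far below the others.

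A pair of properties of the values bears on every statement that follows. First, no SE exceeded 0.138, and for 2498 genes it was smaller than the error that counting alone would give at the gene's mean normalized count in 4 and 5 libraries. At the lowest mean normalized count, 6.83, counting alone gives an SE of 0.37 and the deposited SE was 0.111. An estimate that had not been drawn towards 0 could not have such an SE, so the fold changes are read as understated, most of all for genes with few reads. Second, Wald statistics (fold change over SE) were spread 1.56 times as widely as a standard normal distribution. With every statistic divided by that spread, only 5 genes stayed under an adjusted p of 0.05, namely Grn, Tnfrsf25, Trib1, Hif3a and Ahsg.

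Of the genes switched on by neuronal activity and growth factor signalling, many fell. Synaptic calcium entry and receptor tyrosine kinases act through ERK, CREB and the serum response factor SRF to induce immediate early genes within minutes, and many of the induced proteins switch the pathway off again. Of 71 measured genes in 3 such lists, 29 were lower and 1 higher, against 3.05% and 1.81% of all genes. Their median log2 fold change was -0.29, and 57 of 71 values were negative. The lists were chosen with earlier results of these data known, so their counts are a description.

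The regulatory sequence just before the start of 5 of these genes is shown because the pathway's factors read short motifs there. All 5 hold the short site described next, so they do not represent the lower genes that lack it. Sequences are from RefSeq on GRCm38.p6, 250 bases before the start in the gene's own direction. Capitals mark the short site of the cyclic AMP response element (TGACG on either strand), the full element (TGACGTCA) and the CArG box that SRF binds.
Fos: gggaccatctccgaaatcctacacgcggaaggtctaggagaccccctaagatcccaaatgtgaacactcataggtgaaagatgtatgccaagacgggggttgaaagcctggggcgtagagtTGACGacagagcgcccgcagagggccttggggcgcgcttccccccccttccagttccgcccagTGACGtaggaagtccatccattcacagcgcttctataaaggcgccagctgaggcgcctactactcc
Nr4a1: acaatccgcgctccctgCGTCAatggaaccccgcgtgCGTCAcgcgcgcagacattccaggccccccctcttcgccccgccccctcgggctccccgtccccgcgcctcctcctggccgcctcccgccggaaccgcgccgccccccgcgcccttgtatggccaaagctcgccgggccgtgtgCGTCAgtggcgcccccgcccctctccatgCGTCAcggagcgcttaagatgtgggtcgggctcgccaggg
Egr4: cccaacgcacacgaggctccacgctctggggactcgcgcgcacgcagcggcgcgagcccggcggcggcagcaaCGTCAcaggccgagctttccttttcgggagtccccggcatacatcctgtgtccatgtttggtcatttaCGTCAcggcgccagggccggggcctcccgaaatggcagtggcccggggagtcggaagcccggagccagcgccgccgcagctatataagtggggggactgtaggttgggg
Dusp1: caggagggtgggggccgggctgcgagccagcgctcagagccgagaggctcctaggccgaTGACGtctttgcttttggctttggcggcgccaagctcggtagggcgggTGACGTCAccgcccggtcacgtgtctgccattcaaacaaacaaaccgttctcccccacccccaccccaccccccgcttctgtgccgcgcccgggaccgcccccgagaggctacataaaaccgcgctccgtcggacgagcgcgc
Srf: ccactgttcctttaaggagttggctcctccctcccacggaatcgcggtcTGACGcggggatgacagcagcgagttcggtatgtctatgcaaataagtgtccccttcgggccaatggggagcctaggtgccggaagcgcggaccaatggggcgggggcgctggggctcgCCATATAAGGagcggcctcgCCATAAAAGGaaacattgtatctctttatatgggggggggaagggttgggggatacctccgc
These stretches lie at chr12:85473640-85473889 (Fos, plus strand), chr15:101266596-101266845 (Nr4a1, plus strand), chr6:85513590-85513839 (Egr4, minus strand), chr17:26508473-26508722 (Dusp1, minus strand) and chr17:46556163-46556412 (Srf, minus strand). Promoters were listed for 20 of the 29 lower activity genes, matched by symbol. The short site stood in 16 of these 20, in 29.4% of 11329 measured genes with a listed promoter and in 17.8% of all 32851 promoters. A CArG box stood in 3 of 20, Srf among them, in 1.43% of measured genes and in 1.47% of all promoters. The full element stood in 1 of 20, the Dusp1 promoter shown, in 3.02% of measured genes and in 1.55% of all. The full element holds the short site on both strands and was counted as such. The GC box GGGCGG was found in 16 of 20, in 62.5% of measured genes and in 32.7% of all, and the palindromic glucocorticoid response element in none of the 20 and in 3 of 32851. A match is a run of letters and not evidence that a factor binds. The lists were made of genes that this pathway induces, so a high share of its motifs can follow from that choice. The share among list members that were not called was not counted, so these shares say nothing about why genes were lower.

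Among immediate early transcription factors, 16 of 28 measured genes fell and none rose, with a median log2 fold change of -0.43. Klf2, a zinc finger factor that flow induces in endothelium, fell by 0.77 on the log2 scale (58.5% of wild type, adjusted p = 9.4e-06) in the authors' deposited table. Ier2, an early response gene, stood at -0.75 ± 0.134 (SE, adjusted p = 2.0e-05) and Nr4a1, an orphan nuclear receptor, at -0.71 ± 0.138 (adjusted p = 1.2e-04) per the authors' deposited table. Junb and Fos, subunits of AP-1, stood at -0.60 ± 0.138 and -0.50 ± 0.129, and Srf itself at -0.24 ± 0.073 in the authors' deposited table. Klf4, Csrnp1, Per1, Egr4, Atf3, Egr2, Nr4a3, Fosl2, Klf10 and Bhlhe40 were the other lower genes. Egr1, Fosb and Npas4, named after their values were seen, had log2 fold changes of -0.33 ± 0.135, -0.33 ± 0.137 and -0.23 ± 0.130 with adjusted p-values of 0.13, 0.13 and 0.3 in the authors' deposited table.

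Synaptic and secreted activity genes were mixed. Of 22 measured, 6 fell and 1 rose. Arc, the capsid-like protein that drives AMPA receptor endocytosis, stood at -0.66 ± 0.129 (SE, 63.1% of wild type, adjusted p = 1.1e-04) in the authors' deposited table. The salt-inducible kinase Sik1 and the matricellular protein Cyr61 stood at -0.66 ± 0.136 and -0.65 ± 0.132, and the kinase Plk3 at -0.53 ± 0.122 in the authors' deposited table. The prostaglandin synthase Ptgs2 and the transcription factor Nfil3 completed the lower genes, at -0.41 ± 0.128 and -0.40 ± 0.117 in the authors' deposited table. Nrn1, the secreted plasticity protein neuritin, rose by 0.22 (adjusted p = 0.037) in the authors' deposited table. Values of Bdnf and Homer1, named after they were seen, were -0.12 ± 0.094 and -0.33 ± 0.111 with adjusted p-values of 0.47 and 0.054 in the authors' deposited table. Outside the lists, the small GTPase Gem was at -0.74 ± 0.136 (adjusted p = 2.7e-05) per the authors' deposited table. Tiparp, an ADP-ribosyltransferase, and Apold1, an endothelial early gene, both named after their values were seen, stood at -0.67 ± 0.135 and -0.42 ± 0.118 in the authors' deposited table.

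Feedback regulators of ERK signalling fell in part, with 1 of them among the 3 smallest adjusted p-values. Trib1, a pseudokinase that brings substrates to the COP1 ubiquitin ligase and binds MEK, stood at -0.89 ± 0.129 (SE, 54.0% of wild type, adjusted p = 2.4e-08) in the authors' deposited table. Dusp6, the cytoplasmic phosphatase that removes phosphate from ERK, stood at -0.73 ± 0.111 (60.2%, adjusted p = 1.1e-07) per the authors' deposited table. Dusp1, Dusp5 and Dusp4, nuclear phosphatases of MAP kinases, stood at -0.65 ± 0.138, -0.55 ± 0.136 and -0.44 ± 0.125 in the authors' deposited table. Spry4 and Spry2, inhibitors of receptor tyrosine kinase signalling, stood at -0.54 ± 0.114 and -0.35 ± 0.078 in the authors' deposited table. In all, 7 of 21 measured members fell and none rose. Among 18 RAS, RAF, MEK and ERK kinases themselves (5.56% called), Araf rose by 0.17 (adjusted p = 0.039) and none fell in the authors' deposited table. Of 23 listed CREB and calcium signalling genes only Camk2a, the main postsynaptic calcium-dependent kinase, was called (4.35%, beside 4.87% of all genes), at -0.20 ± 0.055 in the authors' deposited table. Itpr1 and Ryr2, calcium release channels outside that list and named after their values were seen, were also called lower. They stood at -0.41 ± 0.114 and -0.39 ± 0.096 in the authors' deposited table.

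The values of these genes in the other comparisons differed from member to member. Trib1 had a log2 fold change of -0.25 ± 0.128 (adjusted p = 0.24) for Grn+/- over wild type and of -0.63 ± 0.131 (adjusted p = 0.0012) for Grn-/-;GRNtg against Grn+/- in the authors' deposited tables. Dusp6 stood at -0.11 ± 0.111 and -0.63 ± 0.115, Ier2 at 0.037 ± 0.134 and -0.78 ± 0.136, Csrnp1 at 0.066 ± 0.125 and -0.73 ± 0.128, and Dusp1 at -0.061 ± 0.138 and -0.59 ± 0.138 in the same order in the authors' deposited tables. Adjusted p-values of those 4 against Grn+/- were 6.5e-05, 1.4e-05, 2.6e-05 and 0.0095, so that with Trib1 5 members were lower in Grn-/-;GRNtg than in Grn+/- as well. A further 1 member was higher against Grn+/-, namely the ETS factor Etv1 at 0.45 ± 0.110 (adjusted p = 0.019) per the authors' deposited table. Nr4a3, Egr4, Atf3 and Dusp4 instead had values against Grn+/- of 0.13 ± 0.136, -0.069 ± 0.131, 0.042 ± 0.126 and 0.018 ± 0.128, none of them called, beside -0.58 ± 0.137, -0.47 ± 0.129, -0.57 ± 0.130 and -0.46 ± 0.125 for Grn+/- against wild type, all 4 of them called, in the authors' deposited tables.

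**Figure D2:**
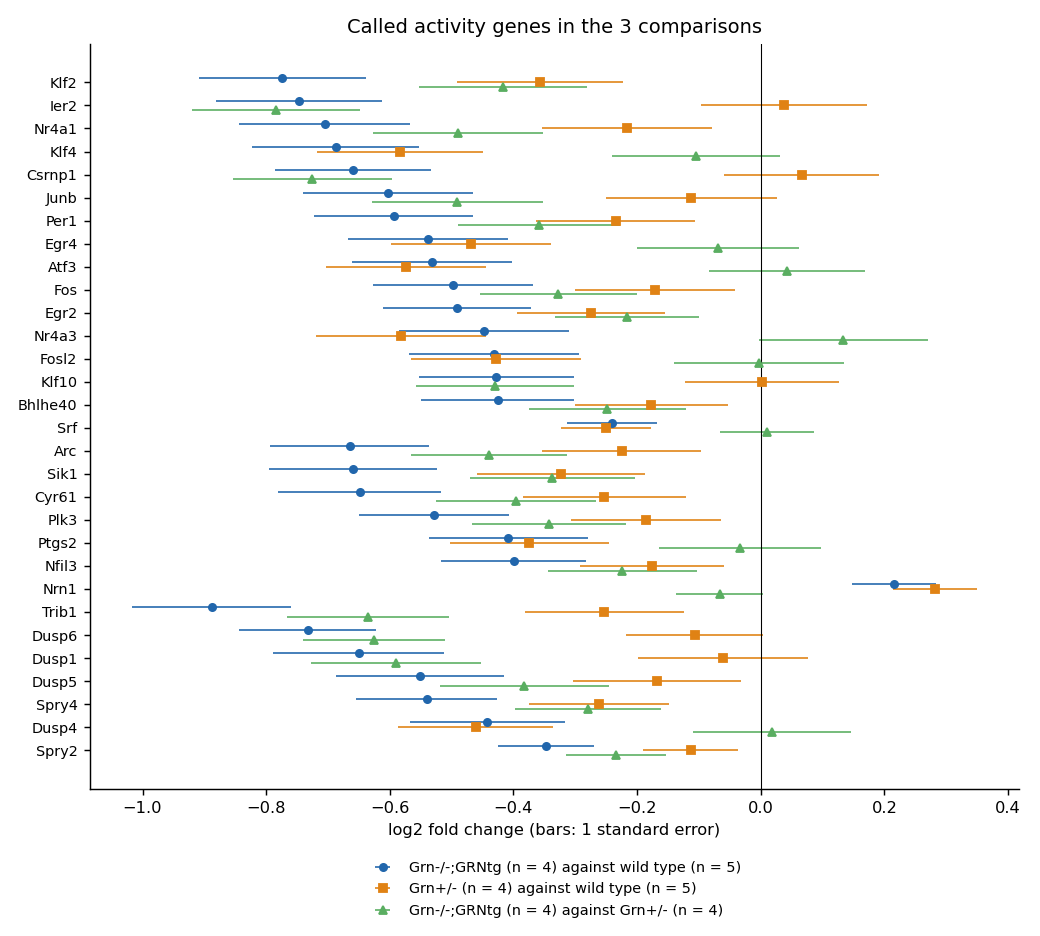
Points are log2 fold changes of the 30 called activity genes and bars are 1 SE, from the authors' deposited tables, for Grn-/-;GRNtg (n = 4) against wild type (n = 5), Grn+/- (n = 4) against wild type, and for the 2 mutant groups against each other. Trib1 is the lowest in Grn-/-;GRNtg against wild type at -0.89, and Nrn1 alone is above 0 in it.

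Targets of steroid hormones and the clock moved in both directions. The glucocorticoid receptor is a nuclear receptor that induces a set of stress genes. Hif3a, a hypoxia-inducible factor subunit that is also a steroid-responsive gene, was the highest called gene with 191% of the wild-type level and a log2 fold change of 0.93 ± 0.137 (SE, adjusted p = 3.5e-08) in the authors' deposited table. Fkbp5, a co-chaperone that restrains the glucocorticoid receptor, stood at 0.58 ± 0.112 (adjusted p = 1.1e-04) and Plin4, a lipid droplet coat protein, at 0.34 ± 0.106 in the authors' deposited table. Per1, Pdk4, Ddit4 and Sgk1 from the same list of 23 fell, at -0.59 ± 0.129, -0.50 ± 0.109, -0.30 ± 0.094 and -0.42 ± 0.133 in the authors' deposited table. The list's median was -0.0077, with 3 genes higher and 4 lower, a share called of 30.4% beside 4.87% of all genes. Nr3c1, the receptor itself, stood at -0.27 ± 0.098 (adjusted p = 0.074) per the authors' deposited table, and was named after its value was seen. Against Grn+/-, Hif3a was 0.62 ± 0.137 (adjusted p = 0.005) per the authors' deposited table.

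Of 21 clock genes, Dbp rose and Per1, Bhlhe40 and Nfil3 fell, a share called of 19.0% beside 4.87% of all genes. All 3 lower genes are also counted among the activity genes, and Per1 in the glucocorticoid list as well. Dbp, an output transcription factor of the clock, stood at 0.35 ± 0.098 (SE, adjusted p = 0.017) and Per2, a core repressor, at -0.34 ± 0.126 without passing (adjusted p = 0.087) in the authors' deposited table. Dio2, the astrocyte enzyme that activates thyroid hormone, was the sole call among 19 thyroid and retinoid genes (5.26%), at -0.52 ± 0.125 in the authors' deposited table. The hypoxia list of 18 genes gave Hif3a and Ankrd37 higher and Pfkfb3, P4ha1 and Ddit4 lower, a share called of 27.8%. Hif3a and Ddit4 are also counted in the glucocorticoid list. The sources used here do not state the time of day of tissue collection.

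Of 14 measured receptors and partners of progranulin, 1 rose and 2 fell, against 1.81% and 3.05% of all genes. Tnfrsf25, which encodes death receptor 3 and is reported to bind progranulin, fell to 52.1% of wild type, that is by a log2 difference of -0.94 ± 0.136 (SE, adjusted p = 2.4e-08) in the authors' deposited table. In Grn+/- it was -0.58 ± 0.136 (adjusted p = 0.0015), and Grn-/-;GRNtg against Grn+/- gave -0.36 ± 0.137 (adjusted p = 0.3) per the authors' deposited tables. Epha2, a receptor tyrosine kinase reported as a progranulin receptor, stood at -0.47 ± 0.130, and Psap, the saposin precursor that carries progranulin to lysosomes, at 0.13 ± 0.042 (adjusted p = 0.042) per the authors' deposited table. Sort1, the sortilin that clears extracellular progranulin, named after its value was seen, was at 0.031 ± 0.060 (adjusted p = 0.81) per the authors' deposited table. Among 19 TNF receptor superfamily genes (10.5% called), Tnfrsf12a, the receptor of TWEAK, was the other lower gene at -0.45 ± 0.135 in the authors' deposited table. Values of the 2 TNF receptors Tnfrsf1a and Tnfrsf1b, named after they were seen, were 0.0026 ± 0.120 and -0.13 ± 0.112, not called, in the authors' deposited table.

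Lysosomal genes were close to wild type. Of 49 hydrolases and membrane proteins, 3 rose (6.12%, beside 1.81% of all genes higher) and none fell. The median log2 fold change was 0.013 and the range was from -0.29 to 0.26. The 3 were Psap, the glycogen-degrading glucosidase Gaa at 0.26 ± 0.079 and the iduronidase Idua at 0.23 ± 0.074 in the authors' deposited table. Ctsd, Ctsb, Lamp1 and Tmem106b, named after their values were seen, stood at -0.03 ± 0.049, -0.044 ± 0.069, -0.042 ± 0.054 and -0.031 ± 0.081, with adjusted p-values of 0.77, 0.76, 0.7 and 0.87 in the authors' deposited table. None of 25 autophagy and TFEB genes passed. Subunits of the proton pump that acidifies lysosomes were not called either, although 18 of 20 Atp6v and Atp6ap genes had positive values and their median was 0.16. In Grn+/- against wild type the median of these genes was also 0.16, with 4 of 18 called higher, where 6.8% of all genes were called. Against Grn+/- it was 0.0032. Of 23 genes mutated in frontotemporal dementia or amyotrophic lateral sclerosis, 1 was called (4.35%, beside 4.87% of all genes). It was Kif5a, a motor of axonal transport, at -0.34 ± 0.110 (adjusted p = 0.045) per the authors' deposited table.

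Progranulin-null mice are known for activated microglia with high complement and lysosomal gene expression. Of 18 homeostatic microglia genes, 22 disease-associated microglia genes, 18 antigen presentation genes and 24 NF-kB and cytokine genes, none was called in either direction. At 4.87% of all genes called, lists of this size hold few calls to begin with. Their medians were -0.046, -0.022, 0.0051 and -0.10. The phagocyte genes C1qa, Trem2, Cd68 and Apoe, named after their values were seen, stood at -0.015 ± 0.091, 0.062 ± 0.089, 0.12 ± 0.116 and 0.086 ± 0.090 in the authors' deposited table. Gpnmb, a glycoprotein of lipid-laden microglia, was at 0.22 ± 0.138 (adjusted p = 0.36) per the authors' deposited table. Of 19 complement genes 1 was called (5.26%), where Cfp, the properdin of the alternative pathway, fell by 0.52 (adjusted p = 2.4e-04) in the authors' deposited table.

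The interferon list leaned lower. Of 46 measured interferon-response genes, 4 fell and none rose, beside 3.05% of all genes lower. In the list 38 had negative values and the median was -0.12. The guanylate-binding proteins Gbp3 and Gbp7 stood at -0.55 ± 0.117 and -0.51 ± 0.126, the signalling subunit Irf9 at -0.47 ± 0.111 and Parp14 at -0.45 ± 0.133 in the authors' deposited table. Gbp3 and Gbp7 are paralogues, and whether reads were shared between them was not tested. In Grn+/- against wild type the median of the list was -0.029 over 40 genes with no call.

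Some vessel genes of the endothelium fell. In bulk tissue, fewer cells of a type and less RNA per cell cannot be told apart. Of 32 endothelial genes, 5 fell and none rose, with a median of -0.12, against 3.05% of all genes lower. Slco1c1, the thyroxine transporter of the blood-brain barrier, stood at -0.36 ± 0.087 (SE, adjusted p = 0.003) in the authors' deposited table. The VEGF receptors Flt1 and Kdr stood at -0.36 ± 0.090 and -0.40 ± 0.117, the junctional phosphatase Ptprb at -0.41 ± 0.117 and the TGF-beta co-receptor Eng at -0.32 ± 0.103 in the authors' deposited table. Cldn5, Pecam1 and Slc2a1, named after their values were seen, were at -0.23 ± 0.097, -0.13 ± 0.113 and -0.0059 ± 0.090, none of them called, in the authors' deposited table. No gene among 17 pericyte and smooth muscle markers passed, and their median was -0.026. Whether endothelial and mural cell genes differed from each other was not tested. Of 26 collagen genes, Col12a1 and Col19a1 fell (7.69%, beside 4.87% of all genes called), at -0.54 ± 0.135 and -0.44 ± 0.114 in the authors' deposited table.

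Dll4, the Notch ligand of sprouting vessels, stood at -0.45 ± 0.131 in the authors' deposited table, alone among 22 genes of the VEGF, angiopoietin and Notch pathways, a share of 4.55% beside 4.87% of all genes. S1pr1, the sphingosine 1-phosphate receptor of endothelium and astrocytes, stood at -0.43 ± 0.080 (adjusted p = 4.7e-05) and the protease Adamts1 at -0.68 ± 0.129 (adjusted p = 8.1e-05) per the authors' deposited table. The peptides Edn1, a vasoconstrictor, and Apln, a ligand of vascular tip cells, were named after their values were seen, at -0.56 ± 0.132 and -0.44 ± 0.132 in the authors' deposited table. In the KLF family, 4 of 14 members fell (28.6%, beside 3.05% of all genes lower): Klf2, Klf4, Klf10 and Klf12, the last at -0.48 ± 0.135 in the authors' deposited table.

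Glial lists were lower in the median, and all their calls were lower. The share called was 4.17% for myelin, 12.5% for oligodendrocyte precursors, 15% for astrocytes and 7.69% for reactive astrocytes. Over all genes 3.05% were lower. In Grn+/- against wild type the medians were -0.13, -0.22, -0.12 and -0.0041 in the same order. Lower calls there numbered 0, 4, 5 and 1, with none higher, where 6.8% of all genes were called. For Grn-/-;GRNtg against Grn+/- the medians were -0.074, 0.19, 0.035 and -0.026, with no call. Of 24 myelin genes, 1 passed, but all 24 had negative values and the median was -0.23, against 48.7% negative over all genes. The gene that passed was Ugt8a, which makes the galactolipids of myelin, at -0.43 ± 0.137 (SE, adjusted p = 0.04) in the authors' deposited table. Mbp and Mog, named after their values were seen, stood at -0.23 ± 0.137 and -0.18 ± 0.136 with adjusted p-values of 0.34 and 0.45 in the authors' deposited table.

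Among 16 oligodendrocyte precursor genes Ptprz1, a receptor phosphatase, and Sox6 fell, at -0.38 ± 0.090 and -0.30 ± 0.087 in the authors' deposited table. Astrocyte markers gave 3 lower and no higher genes of 20, with a median of -0.14. Nr2e1, the nuclear receptor of neural stem cells and astrocytes, stood at -0.48 ± 0.087 (SE, adjusted p = 1.9e-05), the glycogen regulator Ppp1r3c at -0.36 ± 0.113 and the bicarbonate transporter Slc4a4 at -0.25 ± 0.080 in the authors' deposited table. Kcnj10, the inward rectifier that clears potassium in astrocytes, stood at -0.39 ± 0.103, and the transcription factor Sox21 at -0.47 ± 0.106 in the authors' deposited table. Gfap and Aqp4, named after their values were seen, were not called, at 0.17 ± 0.137 and -0.072 ± 0.106 in the authors' deposited table. Of 26 genes of reactive astrocytes, the small heat shock protein Hspb1 and the intermediate filament Nes fell, at -0.50 ± 0.135 and -0.47 ± 0.129 in the authors' deposited table.

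**Figure D3:**
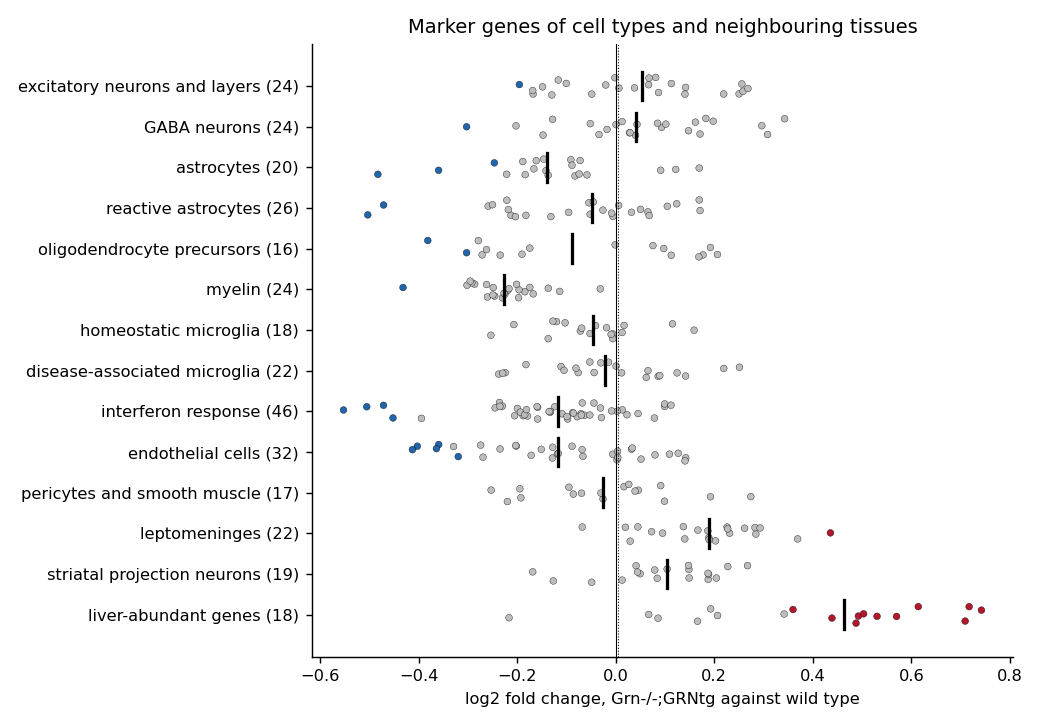
Each row is a list of marker genes with its number of measured members, points are members' log2 fold changes in Grn-/-;GRNtg against wild type, and black bars are medians (red and blue: called higher and lower, grey: not called). All 24 myelin genes lie below 0 with 1 called, 21 of 22 leptomeningeal genes lie above 0 with 1 called, and 11 of 18 liver-abundant genes are called higher.

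Markers of neuron classes were close to wild type. Of 24 excitatory neuron and layer genes only Camk2a was called, and of 24 GABA neuron genes only Sox6, a factor of interneurons and glial precursors, with medians of 0.052 and 0.042. The share called was 4.17% in each list. Among 25 glutamate receptor genes, Grid1 rose and 3 fell, a share called of 16% beside 4.87% of all genes. Grid1, a delta receptor that links synapses through cerebellins, stood at 0.33 ± 0.064 (SE, adjusted p = 1.2e-04) in the authors' deposited table. Grin2b and Grin2a, NMDA receptor subunits, were lower at -0.59 ± 0.131 and -0.42 ± 0.136, and Grm3, a metabotropic receptor also abundant in astrocytes, at -0.37 ± 0.082 in the authors' deposited table.

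Synaptic organisers gave 3 higher genes and no lower one of 33 (9.09%, beside 1.81% of all genes higher). They were Lrrtm4, a postsynaptic adhesion protein, at 0.44 ± 0.107, Slitrk1 at 0.25 ± 0.079 and Cbln1, the cerebellin that bridges neurexin to delta receptors, at 0.51 ± 0.138 in the authors' deposited table. Cbln1 stood at -0.38 ± 0.138 in Grn+/- relative to wild type. Relative to Grn+/- it was 0.88 ± 0.138 (adjusted p = 4.1e-07) in Grn-/-;GRNtg, both in the authors' deposited tables. Slitrk1 was higher in Grn+/- too, at 0.45 ± 0.079 (adjusted p = 1.3e-05) per the authors' deposited table.

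Of 29 measured genes of the release machinery 10.3% were called, beside 4.87% of all genes. The vesicle proteins Syp and Rab3a rose, at 0.25 ± 0.075 and 0.21 ± 0.067 in the authors' deposited table. The active zone scaffold Rims1 fell there, at -0.24 ± 0.076. In a list of 29 neuropeptides and receptors 1 gene was called (3.45%). It was the receptor of nociceptin, Oprl1, at 0.32 ± 0.069 (SE, adjusted p = 7.8e-04) in the authors' deposited table. The peptide receptors Mchr1, Tacr1 and Oxtr, outside that list and named after their values were seen, were also called higher. They stood at 0.29 ± 0.080, 0.38 ± 0.123 and 0.42 ± 0.137 in the authors' deposited table. No gene passed among 54 axon guidance genes or 17 GABA and glycine receptors. Of 30 serotonin, dopamine, adrenergic and cholinergic receptors 1 was called (3.33%). Adra1a, an adrenergic receptor, was lower at -0.46 ± 0.133 in the authors' deposited table. Of 24 genes of neurotrophin and GDNF signalling 12.5% were called. Sorcs3 was higher at 0.32 ± 0.095, and the adaptors Dok6 and Shc3 lower at -0.77 ± 0.136 and -0.37 ± 0.105 in the authors' deposited table. Dok6 stood at -1.05 ± 0.135 in Grn+/- against wild type in the authors' deposited table. Potassium channel genes were split 3 to 3 of 83, a share called of 7.23% beside 4.87% of all genes. Kcnq3 of the M current stood at -0.55 ± 0.138 and Kcna4 of the A current at 0.34 ± 0.103 in the authors' deposited table. None of 40 calcium, sodium and HCN channel genes passed.

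The higher genes with the smallest adjusted p-values include several outside these lists. Nmnat2, the NAD-synthesising enzyme that keeps axons alive, stood at 0.23 ± 0.051 (SE, adjusted p = 0.0015) in the authors' deposited table. Prmt8, a brain arginine methyltransferase, stood at 0.35 ± 0.073 (adjusted p = 4.7e-04) and Fam19a1, a secreted chemokine-like protein, at 0.61 ± 0.129 (adjusted p = 5.8e-04) per the authors' deposited table. The sulfotransferase Chst8 and the HMG-box factor Tox2 stood at 0.50 ± 0.104 and 0.43 ± 0.093, and the X-linked Tceal5 and Armcx5 at 0.43 ± 0.065 and 0.41 ± 0.094 in the authors' deposited table. Snapc2, of the complex that transcribes small nuclear RNAs, stood at 0.34 ± 0.069, Tbcc, a tubulin folding cofactor, at 0.38 ± 0.085, and the phosphatase Ppm1g at 0.22 ± 0.050 in the authors' deposited table. Lancl2, Zcchc3 and 4933404O12Rik stood at 0.30 ± 0.069, 0.45 ± 0.101 and 0.47 ± 0.085 in the authors' deposited table.

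Protein folding genes of the endoplasmic reticulum fell in part. The unfolded protein response senses misfolded proteins there and induces chaperones through XBP1 and ATF6. Of 34 measured genes, 6 fell and none rose, against 3.05% of all genes lower. Values of 9 were positive and the median was -0.054. Xbp1 stood at -0.31 ± 0.058 (SE, adjusted p = 6.3e-05), and the disulfide isomerase Pdia4 at -0.41 ± 0.085 (adjusted p = 3.2e-04) per the authors' deposited table. Creld2, Manf, Dnajc3 and Sdf2l1, ER-resident folding factors, stood at -0.39 ± 0.091, -0.37 ± 0.088, -0.29 ± 0.070 and -0.39 ± 0.122 in the authors' deposited table. Xbp1, Pdia4, Creld2 and Dnajc3 were also lower in Grn+/- against wild type, at -0.29 ± 0.058, -0.32 ± 0.085, -0.39 ± 0.091 and -0.23 ± 0.070 in the authors' deposited tables.

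Of 31 cytosolic chaperones, Hspa2 was higher and Hspb1, Dnajb5 and Hspa4l lower, a share called of 12.9% beside 4.87% of all genes. Dnajb5 stood at -0.41 ± 0.1 and Hspa2 at 0.31 ± 0.098 in the authors' deposited table. The redox list of 24 (8.33% called) held thioredoxin reductase Txnrd1 and the metal-responsive factor Mtf1 as lower genes, at -0.25 ± 0.058 and -0.26 ± 0.070 in the authors' deposited table. Gadd45a and Btg2, growth arrest genes, fell among 20 p53 targets and damage genes (10% called), at -0.48 ± 0.126 and -0.43 ± 0.135 in the authors' deposited table. Both are also early response genes.

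Mitochondrial, proteasomal and glycolytic genes lay slightly above 0. Of 90 respiratory chain genes, 3 rose (3.33%, beside 4.87% of all genes called), none fell and 77 had positive values, with a median of 0.072. The 3 were Ndufb6 of complex I at 0.29 ± 0.067, and the ATP synthase subunits Atp5g3 and Atp5a1 at 0.22 ± 0.052 and 0.17 ± 0.048 in the authors' deposited table. In Grn+/- against wild type 14 of 88 respiratory chain genes rose, with a median of 0.084, and the median against Grn+/- was -0.035. Psmb6 and Psma4 rose among 47 proteasome genes (4.26% called), of which 40 were positive. Mitochondrial ribosomal proteins gave 1 call (1.30%), Mrpl41, and 64 of 77 positive values. Cytosolic ribosomal proteins were at a median of 0.018, and Rps4l, a relative of Rps4x with which it can share reads, was the one call at 0.53 ± 0.135 in the authors' deposited table.

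Among 24 glycolysis and lactate genes (12.5% called), Aldoa and Pkm rose, at 0.29 ± 0.068 and 0.18 ± 0.059, and the lactate transporter Slc16a1 fell, at -0.33 ± 0.098 in the authors' deposited table. The median of that list was 0.14. Of 32 cholesterol synthesis and SREBP target genes 6.25% were called, and of 24 lipid transport genes 8.33%, beside 4.87% of all genes. Fdft1 of cholesterol synthesis was higher at 0.25 ± 0.061, and the desaturase Scd2 and the lipid exporters Abca7 and Abca1 lower at -0.24 ± 0.076, -0.35 ± 0.080 and -0.48 ± 0.114 in the authors' deposited table.

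RNA processing genes moved in both directions. Of 48 splicing regulators, Hnrnpd and Hnrnpk rose and 7 genes fell, a share called of 18.8% beside 4.87% of all genes. With a minimum log2 fold change of 0.3, 2 lower and 0 higher calls were left in this list. Outside the list, Hnrnpab, Hnrnpa0 and the splicing factor Sf3b2, named after their values were seen, were also called higher. They stood at 0.19 ± 0.056, 0.19 ± 0.059 and 0.16 ± 0.042 in the authors' deposited table. Hnrnpd, which binds AU-rich elements, stood at 0.18 ± 0.039 (SE, adjusted p = 7.3e-04), and Tra2a, an SR-like factor, at -0.29 ± 0.066 (adjusted p = 0.0015) per the authors' deposited table. The kinases Clk1, Clk4 and Clk3, which phosphorylate SR proteins, stood at -0.43 ± 0.099, -0.30 ± 0.093 and -0.24 ± 0.079 in the authors' deposited table. Son, Srsf7 and Srsf6 were the other lower genes, at -0.32 ± 0.088, -0.18 ± 0.056 and -0.18 ± 0.059 in the authors' deposited table. Malat1, a long noncoding RNA kept in nuclear speckles, stood at -0.62 ± 0.109 (65.2% of wild type, adjusted p = 1.3e-05) in the authors' deposited table, with 23570.1 mean normalized counts. Of 18 microRNA pathway genes (16.7% called) Drosha rose, at 0.14 ± 0.041, and the Argonautes Ago3 and Ago2 fell, at -0.57 ± 0.137 and -0.43 ± 0.115, in the authors' deposited table.

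The split between higher and lower calls varied with gene span. Genes were placed in 5 bins of near-equal size by span. In the bin of shortest spans, up to 8259 bases, 82 were higher and 74 lower. In the bin of longest spans, over 78652 bases, 61 were higher and 149 lower. Median log2 fold changes ran from 0.04 in the shortest bin to -0.02 in the longest. With the running trend of fold change over span removed, 647 genes were called, 251 higher and 396 lower. Genes of the longest kind that fell, named after their values were seen, include the cytoskeletal linkers Macf1 at -0.30 ± 0.072 and Dst at -0.32 ± 0.085, and the chromatin regulators Kmt2a at -0.34 ± 0.103 and Kmt2c at -0.38 ± 0.091 in the authors' deposited table. The share of called genes also grew with the mean normalized count, from 2.04% in the lowest of 5 bins to 6.72% in the highest.

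**Figure D4:**
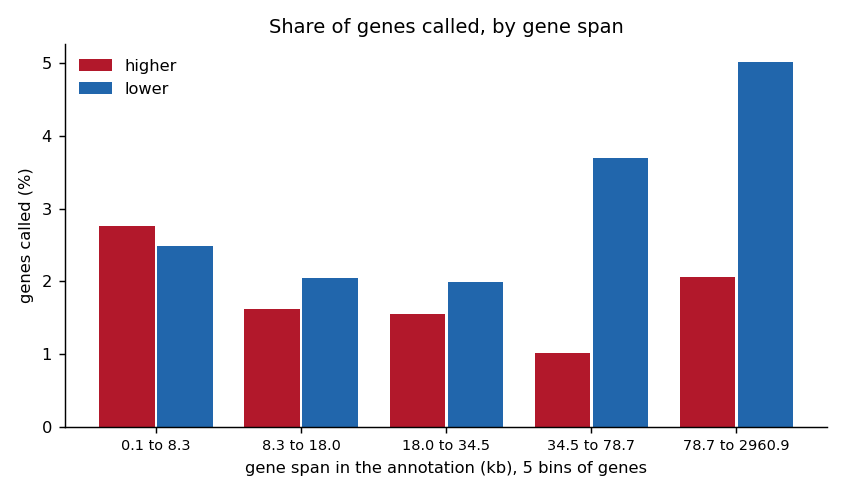
Bars give the percentage of genes called higher (red) and lower (blue) in 5 bins of genes ordered by the span from first to last annotated base, in kilobases. Lower calls reach 5.01% in the longest bin beside 2.05% higher calls, and the shortest bin holds 2.49% lower and 2.76% higher.

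Reads that no gene claimed were counted in rows of their own. The row for reads outside any feature fell by 0.18 (SE 0.052, adjusted p = 0.024) and the row for reads claimed by more than 1 gene was at 0.13 ± 0.054 (adjusted p = 0.12) per the authors' deposited table. These make up 17.0% and 0.606% of mean normalized counts. Zinc finger genes of the Zfp family gave 2 higher and 11 lower of 345, a share called of 3.77% beside 4.87% of all genes, with Zfp369 and Zfp948 the lowest adjusted p-values, at -0.66 ± 0.136 and -0.44 ± 0.098 in the authors' deposited table. Pisd-ps1 and Pisd-ps2, transcribed pseudogenes of a phospholipid enzyme, stood at -0.59 ± 0.107 and -0.57 ± 0.109 in the authors' deposited table, and as near-identical copies their reads are uncertain.

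Other signalling pathways held calls in both directions. The share called was 10% for the Wnt list, 2.56% for TGF-beta and BMP and 9.38% for insulin and mTOR. For SRF and Hippo targets it was 20.8%, beside 4.87% of all genes. Of the SRF and Hippo calls, Cyr61 and Srf are also counted among the activity genes above. In the Wnt list of 40, the ligand Wnt5a rose, at 0.42 ± 0.134, and the scaffold Apc, the inhibitor Nkd1 and the co-receptor Lrp6 fell, at -0.43 ± 0.095, -0.30 ± 0.093 and -0.27 ± 0.089 in the authors' deposited table. Smad5 was the only call among 39 TGF-beta and BMP genes, at -0.31 ± 0.087 in the authors' deposited table. In the insulin and mTOR list of 32, the mTORC1 activator Rheb rose, at 0.21 ± 0.052, and the insulin receptor substrate Irs2 and the mTORC1 inhibitor Ddit4 fell, at -0.47 ± 0.122 and -0.30 ± 0.094 in the authors' deposited table. SRF and Hippo targets gave the cytoplasmic actins Actb and Actg1 higher, at 0.17 ± 0.044 and 0.25 ± 0.076, and Cyr61, Srf and the coactivator Wwtr1 lower, the last at -0.35 ± 0.098 in the authors' deposited table. Fam46a, a poly(A) polymerase, Prex2, a Rac exchange factor, and the adaptor Dok3 were among the lowest adjusted p-values, at -0.78 ± 0.123, -0.61 ± 0.119 and -0.60 ± 0.115 in the authors' deposited table, and all 3 were lower in Grn+/- too, at -0.66 ± 0.123, -0.73 ± 0.119 and -0.59 ± 0.115 in the authors' deposited tables.

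Several called genes lay near Grn. Grn starts at base 102430315 of chromosome 11 in the mm10 annotation. Within 1.5 Mb on either side, a width chosen after the values were seen, 13 of 82 other genes were called, or 15.9%, beside 4.87% of all genes. Of these, 7 were higher and 6 lower. From 1.5 to 5 Mb the count was 1 of 110, from 5 to 20 Mb 8 of 347 and beyond that 25 of 658. Around any other called gene more than 3 Mb from Grn, a window of the same width held at most 7 called genes. As a share, windows with fewer genes reached more than the one around Grn, with 6 of 20 genes called around Grin2b (30%) and 5 of 21 around Msra (23.8%).

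Arl4d, an ARF-like GTPase, was the lowest of these neighbours, at -0.76 ± 0.129 (SE, adjusted p = 3.9e-06) in the authors' deposited table. It was -0.20 ± 0.128 in Grn+/- against wild type (adjusted p = 0.39) and -0.56 ± 0.131 against Grn+/- (adjusted p = 0.0098) in the authors' deposited tables. Adam11, a catalytically inactive neuronal ADAM protein, stood at 0.41 ± 0.085 (adjusted p = 3.4e-04) and Eftud2, a spliceosomal GTPase, at 0.20 ± 0.053 in the authors' deposited table. The paralogous gamma-tubulin genes Tubg1 and Tubg2 went opposite ways, at 0.27 ± 0.085 and -0.22 ± 0.058 in the authors' deposited table, and can share reads. Rnd2, Mpp3 and Meox1 were higher, at 0.24 ± 0.073, 0.23 ± 0.068 and 0.48 ± 0.137, while Aoc2, Rundc1 and Plekhm1 were lower, at -0.43 ± 0.118, -0.19 ± 0.062 and -0.26 ± 0.082 in the authors' deposited table. Arhgap27 was lower and its antisense Arhgap27os3 higher, at -0.30 ± 0.082 and 0.76 ± 0.117 in the authors' deposited table. The counting is not stated to use strand, so reads of that pair cannot be told apart. Grn-/- mice carry the targeted chromosome segment on both copies, so the loss of Grn and any other sequence linked to it cannot be told apart here.

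**Figure D5:**
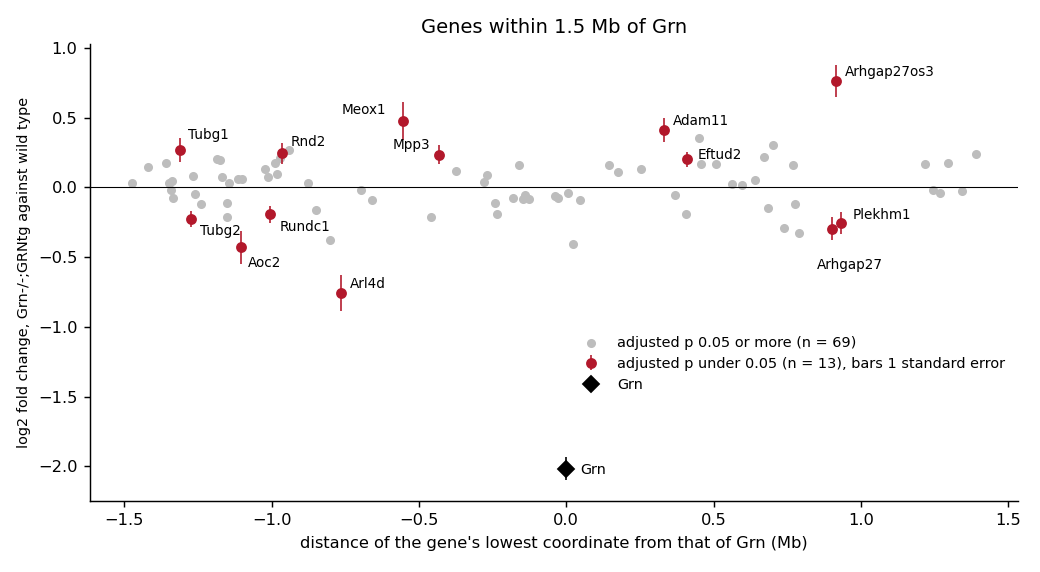
Each point is a measured gene on chromosome 11, with the distance of its lowest coordinate from that of Grn in megabases and its log2 fold change in Grn-/-;GRNtg against wild type (red: called, with 1 SE; grey: not called; black diamond: Grn). The 13 called neighbours lie between -1.31 and 0.93 Mb from Grn, 8 on the lower-coordinate side and 5 on the other, with Arl4d lowest at -0.76 and Arhgap27os3 highest at 0.76.

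Most measured liver-abundant genes were higher, at very low counts. Of 31 listed liver-abundant genes 18 were measured, and 11 of these rose and none fell, against 1.81% of all genes higher. The median log2 fold change of the 18 was 0.46. No member had a mean normalized count under 6.83. A gene this rare can have been measured mainly through the group where it is high, so the 11 of 18 may depend on that floor. Only 4 of the 18 were measured in Grn+/- against wild type. Apoa1 and Apoa2, apolipoproteins of high-density lipoprotein, stood at 0.71 ± 0.114 and 0.72 ± 0.131 in the authors' deposited table. The fetuin Ahsg was at 0.61 ± 0.091 (SE, adjusted p = 4.9e-08), the alcohol dehydrogenase Adh1 at 0.74 ± 0.117 (adjusted p = 3.1e-07) and fibrinogen beta Fgb at 0.53 ± 0.089 in the authors' deposited table. Serpina1b, Apoc1, Apoc3, Mat1a, Cyp2e1 and Hpx were the other 6, and the mean normalized counts of all 11 lay between 6.87 and 26.8. Outside the list, the secreted plasma proteins Gc and Itih4 stood at 0.60 ± 0.092 and 0.56 ± 0.104 with 9.84 and 7.83 mean normalized counts in the authors' deposited table. Albumin, Alb, averaged 164 normalized counts and had 0.067 ± 0.035 (adjusted p = 0.25) per the authors' deposited table. Against Grn+/-, Apoa1 was at 0.72 ± 0.111 (adjusted p = 3.5e-07) and Ahsg at 0.57 ± 0.088 (adjusted p = 3.5e-07) per the authors' deposited table. Of 2429 genes with a mean normalized count under 50, 45 were called, 32 of them higher. Whether 1 mouse or all 4 carried these reads was not tested. Without the liver-abundant genes, 713 genes were called.

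Leptomeningeal genes were positive in 21 of 22, with a median of 0.19 and 1 call (4.55%, beside 4.87% of all genes), the calcification inhibitor Mgp at 0.44 ± 0.136 (adjusted p = 0.037) per the authors' deposited table. Their median was 0.17 over 20 genes in Grn+/- against wild type and 0.054 in Grn-/-;GRNtg against Grn+/-, with no call in either. Striatal projection neuron genes had a median of 0.10 with none of 19 called. Hippocampal, thalamic and choroid plexus lists gave no call among 12, 11 and 6 genes. Their part in the other results was not tested.

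Of the 728 genes, 33 were also called in Grn-/-;GRNtg against Grn+/-, 22 higher and 11 lower, and 15 of them had a mean normalized count under 50. Those described above are Grn, Trib1, Hif3a, Dusp6, Dusp1, Ier2, Csrnp1, Arl4d, Chst8, Cbln1, Hnrnpd, Arhgap27os3 and liver-abundant genes. Others were named after their values were seen. Hprt, the X-linked purine salvage enzyme, stood at -0.55 ± 0.128 (SE, adjusted p = 0.0023) against wild type and -0.59 ± 0.125 (adjusted p = 0.0022) against Grn+/-, with 0.04 ± 0.128 between Grn+/- and wild type, in the authors' deposited tables. The proprotein convertase Pcsk5 and the lipoxygenase Aloxe3 stood at 0.52 ± 0.127 and 0.47 ± 0.124 against wild type, and at 0.53 ± 0.130 and 0.58 ± 0.127 against Grn+/-, in the authors' deposited tables. Prr36 rose and Cdc42ep3, an effector of CDC42, fell, at 0.45 ± 0.111 and -0.41 ± 0.107 against wild type in the authors' deposited table. All 3 comparisons come from 1 fit and share mice, so these values are not independent of one another.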

How the data were processed

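The values are the authors' deposited comparison tables, 1 per pair of genotypes, for total RNA of 13 mouse cortices. The library kit was directional, per the labels' protocols. The submitters' processing notes name DESeq2 1.34.0, R 4.1.2 and the build mm10 without roles. The notes name no aligner, counter, annotation or strand setting, which remain not given in the sources used here. Per the file headers, each deposited row holds a mean normalized count (a signal averaged over libraries), a log2 fold change with its SE, the Wald statistic (a score, fold change over SE), a p-value and an adjusted p-value. Division of the deposited columns returned the statistic in every row, the Benjamini-Hochberg adjustment returned the adjusted p-value, and fold changes were additive over the 3 tables. Rows no_feature (17.0% of mean normalized counts) and ambiguous (0.606%) were left out. The depth of each library is unknown, and mean normalized counts of genes summed to about 18114000 per library. No new test between mice was made. The p-values reflect variation among these 13 mice, under the authors' model.

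Members and lists were chosen with earlier results of these data known. The 62 lists and 37 symbol families were summarised by calls at an adjusted p under 0.05 and by median log2 fold change, in Python 3.11.15 with pandas 2.3.3, numpy 2.4.6 and scipy 1.17.1. Genes named in the text were taken from Grn, the 20 higher and 20 lower calls with the smallest adjusted p at a mean normalized count of at least 50, the 12 higher and 12 lower with the largest fold, the 10 low-count calls with the smallest adjusted p, every call and the 6 smallest adjusted p of each list, and every call and the 4 smallest of each family. Other genes, including neighbours of Grn and markers, were named after their values were seen. Positions come from GENCODE M21 by symbol, for 99.3% of genes, and promoters from RefSeq on GRCm38.p6. The adjustment, scaling and trend functions were tested on simulated data. Alternatives were a stricter adjusted p, a minimum fold, a minimum mean normalized count, genes in all 3 tables, median centring, removal of the span trend in 20 bins, statistics divided by their robust spread, removal of liver-abundant genes and the Benjamini-Yekutieli adjustment. Human GRN was not analysed here.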

Additional observations from a re-analysis of the deposited data

Results flagged for a closer look

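Reads assigned to no gene lie outside the gene comparisons, and were flagged because their row was called. In the authors' deposited table its log2 fold change in Grn-/-;GRNtg against wild type was -0.18 ± 0.052 (SE, adjusted p = 0.024). The same row stood at -0.22 ± 0.052 (adjusted p = 0.0019) in Grn+/- against wild type and at 0.041 ± 0.054 (adjusted p = 0.91) in Grn-/-;GRNtg against Grn+/- in the authors' deposited tables. What these reads are was not tested. No values per mouse were used here, so no sample could be checked against its group.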

How the results depend on the processing

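The 728 called genes (271 higher, 457 lower) became 254 (82 and 172) at an adjusted p under 0.01, 177 (55 and 122) under the Benjamini-Yekutieli adjustment and 5 (2 and 3) with statistics divided by their robust spread of 1.56. A minimum log2 fold change of 0.3 left 454 genes, 147 of them higher and 307 lower. Between 647 and 740 genes were called with a mean normalized count of at least 50, with genes in all 3 tables, after median centring, after removal of the span trend and without liver-abundant genes. Lower calls were 60.0% to 68.9% of all calls in these alternatives, beside 62.8%. The log2 fold change of Grn stayed between -2.04 and -2.02 and was called in each. Of the named calls other than Grn, 280 of 339 stayed called with the span trend removed, and 4 with the robust spread. No named call changed sign in any alternative run. Of 124 list counts, 109 stayed within 1.5 times with the span trend removed and 104 with the minimum fold, but 76 at an adjusted p under 0.01, 73 under Benjamini-Yekutieli and 59 with the robust spread, where lower immediate early factors went from 16 to 0 and higher liver-abundant genes from 11 to 1. No paired analysis was possible because the tables give no values per mouse, and leaving out single mice was not run for the same reason. Estimates drawn towards 0 and an unknown depth limit what can be said of genes with few reads.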
